A study of Mus musculus with 24 samples.

Results

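The tubulin genes described here were 10 genes that encode the subunits of microtubules: 5 alpha-tubulin genes (Tuba1a, Tuba1b, Tuba1c, Tuba4a and Tuba8) and 5 beta-tubulin genes (Tubb2a, Tubb2b, Tubb4b, Tubb5 and Tubb6). They were found by Ensembl identifier among the 52350 genes counted in each library, and all 10 passed the filter on low counts that kept 15294 genes. RNA sequencing of poly-A-selected RNA was done on 24 heart samples from male wild-type C57Bl/6 mice aged 12 weeks, with 6 samples in each of 4 groups, after the mice had been accustomed to the treadmill. ZT12-EX mice were made to run on a treadmill once, for 60 min, on the level (0% grade) at a speed of 10 m/min, as the active phase began, and ZT12-SED mice were sedentary controls of that time. ZT0-EX mice did the same as the rest phase began, and ZT0-SED mice were sedentary controls of that time. In a cycle of 12 h of light and 12 h of darkness, zeitgeber time (ZT) gives the hours since the lights came on. No group carried an engineered allele, and the labels do not give the time between the run and tissue collection. Within each group, replicates 1 to 3 were run on flow cell 1 and replicates 4 to 6 on flow cell 2. The 10 genes were chosen with results of these libraries known and the values that chose them are not recorded, so their fold changes and p-values between groups describe these libraries and support nothing further.

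Alpha-tubulin and beta-tubulin form heterodimers that polymerise into microtubules, and mammals encode each subunit in a family of near-identical genes called isotypes. In the heart muscle cell microtubules form a lattice around the nucleus and along the myofibrils, where their detyrosinated fraction adds mechanical stiffness. New tubulin is folded by prefoldin, the CCT chaperonin and the tubulin folding cofactors. Tubulin mRNA is destroyed during translation when free dimers are in excess, a feedback in which TTC5 recognises the emerging amino end of the chain.

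The heart label held: all 10 cardiomyocyte markers were detected, none was at 0 in all libraries, and their summed level lay between 30700 and 199000 CPM (counts scaled to library size by TMM). Library totals ranged from 9697334 to 23067191 counts, so 3 counts stood for 0.13 to 0.575 CPM. Some libraries differed in ways that touch the results below. ZT12-EX 4, ZT12-SED 1 and ZT12-SED 2 had the lowest rank correlation with the other libraries (median 0.852, 0.791 and 0.862). In 6 libraries of flow cell 2 (ZT0-EX 4, ZT0-EX 5, ZT0-EX 6 and replicate 6 of the other groups) the 12 fast skeletal muscle markers averaged 5.78 to 7.68 in log2 CPM, against -1.43 to 1.67 in the other 18 libraries. On flow cell 1 the Spearman correlation of a gene's level with the GC content of its transcript, across genes, ran from -0.82 to 0.24, and on flow cell 2 from 0.44 to 0.7. Bulk RNA cannot tell fewer cells of a type from less RNA per cell.

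The coding starts of 4 beta-tubulin genes are shown because TTC5 reads the chain they encode and because they show how far isotypes share sequence. Each line gives the first 60 coding bases, 5′ to 3′, from the GENCODE M21 transcripts. Capitals mark bases that differ from Tubb2a. The Tuba1a, Tuba1b and Tuba1c genes lie on chromosome 15, Tuba4a on chromosome 1, Tuba8 on chromosome 6, Tubb2a and Tubb2b on chromosome 13, Tubb4b on chromosome 2 and Tubb5 on chromosome 17.
Tubb2a: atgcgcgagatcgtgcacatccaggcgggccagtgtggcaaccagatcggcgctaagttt
Tubb2b: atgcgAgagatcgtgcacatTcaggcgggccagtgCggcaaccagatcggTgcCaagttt
Tubb4b: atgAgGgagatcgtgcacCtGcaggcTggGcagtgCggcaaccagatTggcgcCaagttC
Tubb5: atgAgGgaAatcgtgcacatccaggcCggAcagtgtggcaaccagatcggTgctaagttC
In this stretch Tubb2b had 5 bases that differed from Tubb2a, Tubb5 had 7 and Tubb4b had 10. Over the whole coding sequence Tuba1a was 98.3% and Tuba1c 97.9% identical to Tuba1b, and Tubb2b was 96.5% identical to Tubb2a. The longest stretch shared with Tuba1b ran for 468 bases in Tuba1c and 29 bases in Tuba4a. The longest stretch that Tubb2b shared with Tubb2a ran for 551 bases.

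This sharing limits the separate values. Of all 75-base windows of the annotated transcripts, 70.4% in Tuba1a, 70% in Tuba1b and 48.9% in Tuba1c also occurred in another gene, against 43.2% in Tubb2a, 30.2% in Tubb2b and 29.9% in Tubb4b. Tuba4a shared 33.4% of its windows with the overlapping gene Stk16, and Tuba8 shared 13.5% with Gm15856. For Tubb5 and Tubb6 the share was 0%. The labels do not say how reads that fit more than 1 gene were counted, so single-gene values of every member but Tubb5 and Tubb6 are uncertain. Sums within Tuba1a, Tuba1b and Tuba1c, and within Tubb2a and Tubb2b, are given beside them. A sum keeps reads placed anywhere within its set, but not reads that were left out of the counts.

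Promoter sequence was matched for 8 of the 10 genes (RefSeq, build GRCm38.p6). The 250 bases before the start of Tubb2a (chr13:34078009-34078258, minus strand), Tubb4b (chr2:25224703-25224952, minus strand) and Tuba4a (chr1:75219295-75219544, minus strand) are shown because Tubb2a and Tubb4b separated sedentary hearts of ZT12 and ZT0 and Tuba4a was the most abundant gene. Capitals mark matches, on either strand, to the GC box (GGGCGG), the CCAAT box (CCAAT) and the cAMP response element (TGACGTCA).
Tubb2a: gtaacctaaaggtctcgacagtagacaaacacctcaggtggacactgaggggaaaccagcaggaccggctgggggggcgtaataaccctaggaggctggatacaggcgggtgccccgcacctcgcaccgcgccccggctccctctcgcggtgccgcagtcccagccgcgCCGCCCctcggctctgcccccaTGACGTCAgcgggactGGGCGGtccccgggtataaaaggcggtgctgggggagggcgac
Tubb4b: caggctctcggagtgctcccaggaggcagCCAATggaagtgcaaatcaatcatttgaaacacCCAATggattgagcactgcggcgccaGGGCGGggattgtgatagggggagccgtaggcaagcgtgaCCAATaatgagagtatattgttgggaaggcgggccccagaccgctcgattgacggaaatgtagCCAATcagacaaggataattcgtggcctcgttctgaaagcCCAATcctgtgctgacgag
Tuba4a: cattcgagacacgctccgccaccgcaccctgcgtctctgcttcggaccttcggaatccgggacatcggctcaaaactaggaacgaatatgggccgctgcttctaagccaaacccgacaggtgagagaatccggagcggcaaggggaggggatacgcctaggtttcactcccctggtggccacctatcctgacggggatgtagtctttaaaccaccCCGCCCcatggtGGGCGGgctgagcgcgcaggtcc
Tubb2a held a cAMP response element 59 bases before its start, a match found in 1.55% of 32851 promoters of the same length. Tubb4b held 5 CCAAT boxes, and 4 of the 8 tubulin promoters (Tuba1a, Tuba1c, Tubb4b and Tubb5) held at least 1, against 33.8% of all promoters. GC boxes were in 5 of the 8, against 32.7% of all promoters. The E-box (CACGTG), the site of the clock proteins CLOCK and BMAL1, was in Tuba8 and Tubb5 and in 6.02% of all promoters. The heat shock element core (GAANNTTC) was in 0 of the 8 and in 6.69% of all promoters.

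Levels per exon length (RPKM) put the same 3 genes on top in every group. The length used joins all annotated exons of a gene (3701 bases in Tuba4a, 3327 in Tubb5) and is not that of 1 transcript. How shared reads were counted is not known, so with this choice of length the levels and their order could shift. Shared windows made up 70.4% in Tuba1a, 33.4% in Tuba4a, 29.9% in Tubb4b and 0% in Tubb5. Tuba4a, whose product is made without the carboxy-terminal tyrosine of most other alpha-tubulins, averaged 139 ± 110 RPKM in ZT12-EX, 86.8 ± 48.6 in ZT12-SED, 156 ± 18.1 in ZT0-EX and 167 ± 33.3 in ZT0-SED hearts (SD, n = 6 each). It was above the next gene, the widely expressed beta-tubulin gene Tubb4b, in 6 of 6 libraries of every group. Tubb4b averaged 66.8 ± 44.8 RPKM in ZT12-EX, 41.8 ± 21.7 in ZT12-SED, 73.4 ± 8.01 in ZT0-EX and 79.1 ± 12 in ZT0-SED hearts. Tuba8, a divergent alpha-tubulin gene known from heart, skeletal muscle and testis, was next at 52.6 ± 52.4, 33.1 ± 17.8, 62 ± 11.2 and 62.3 ± 12.9 RPKM in the same order of groups. Tuba8 was above the gene after it in only 3 of 6 ZT12-SED libraries, against 5 or 6 of 6 in the other groups. Tuba1a, Tuba1b and Tubb5 followed, and neighbours among them were in the same order in 3 to 5 of 6 libraries of a group. Tubb2a, Tuba1c, Tubb6 and Tubb2b came last in that order in all 4 groups, and Tubb2b, known as a neuronal isotype, averaged 1.04 ± 0.372, 0.629 ± 0.283, 1.32 ± 0.208 and 1.28 ± 0.442 RPKM.

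Tuba4a and Tubb4b had the highest mean share of their pools in each group. Shares and the ratio of sums below rest on the same RPKM values, so the counting of shared reads and the exon length used could shift them. Tuba4a supplied 52.5 ± 4.65% of the summed alpha-tubulin RPKM in ZT12-EX, 49 ± 9.27% in ZT12-SED, 54.8 ± 1.75% in ZT0-EX and 53.5 ± 2.33% in ZT0-SED hearts. On flow cell 1 its share was 42.5 ± 8.9% in ZT12-SED and 53.8 ± 3.56% in ZT0-SED hearts, and on flow cell 2 it was 55.6 ± 2.69% and 53.2 ± 0.814% (SD, n = 3 each). Tubb4b supplied 57 ± 6.43%, 56.4 ± 4.36%, 58.3 ± 2.2% and 61.3 ± 2.42% of the summed beta-tubulin RPKM in the same groups. Among the smaller shares, Tubb5 gave 26.1 ± 1.26% of beta-tubulin RPKM in ZT12-SED hearts, against 21.3 ± 1% in ZT0-SED hearts. Tuba1a gave 17.6 ± 10.5% of alpha-tubulin RPKM in ZT12-SED hearts, against 11.8 ± 2.04% in ZT0-SED hearts. That direction held on flow cell 1 (26.1 ± 7.83% in ZT12-SED, 12.9 ± 2.14% in ZT0-SED) and turned on flow cell 2 (9.14 ± 0.91% and 10.7 ± 1.42%). Summed alpha-tubulin RPKM averaged 257 ± 192 in ZT12-EX, 167 ± 72.5 in ZT12-SED, 284 ± 26.1 in ZT0-EX and 312 ± 60.8 in ZT0-SED hearts, and summed beta-tubulin RPKM 113 ± 60.2, 72.3 ± 34.9, 126 ± 9.45 and 129 ± 21.2. The ratio of the sums ran from 1.85 to 2.98 over the 24 libraries. It is a ratio of mRNA levels, not of protein.

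**Figure D1:**
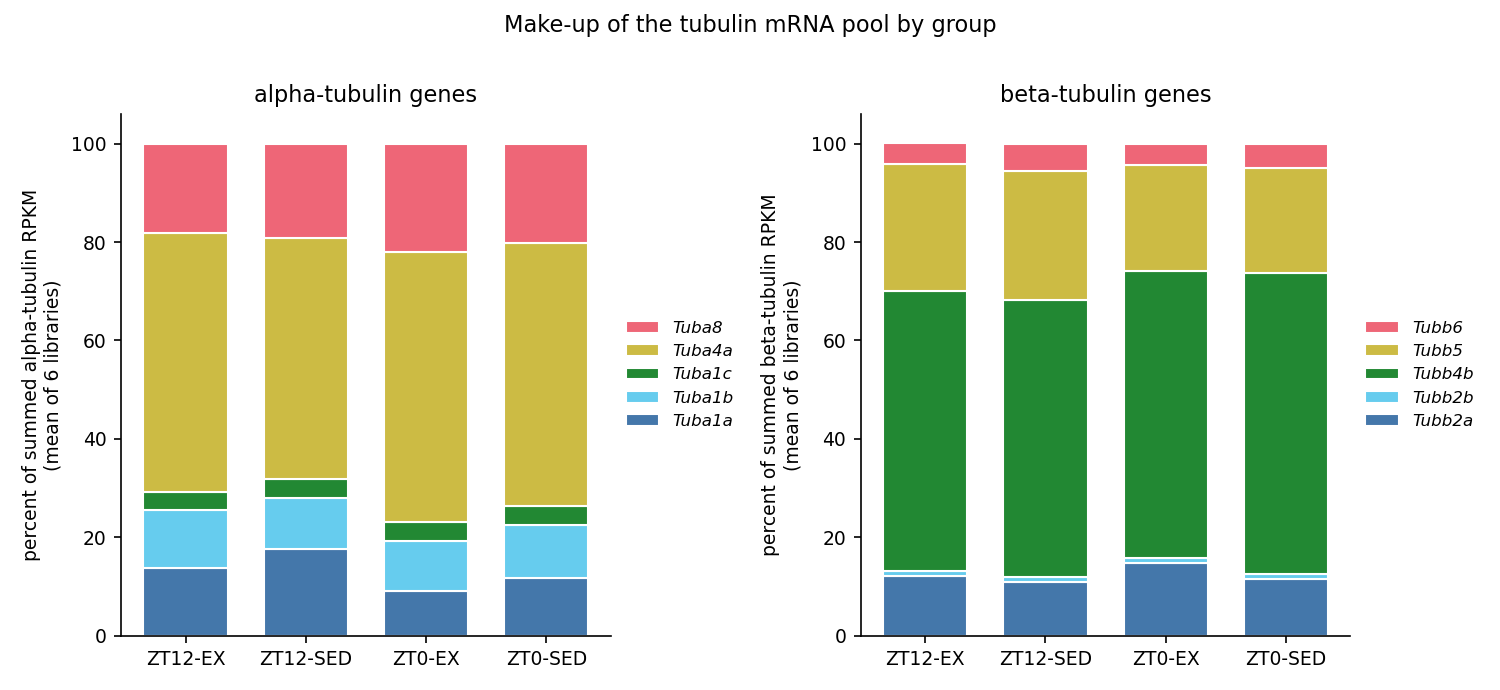
Share of each gene in the summed RPKM of its class, as the mean of 6 libraries, for alpha-tubulin genes (left) and beta-tubulin genes (right) in the 4 groups. The shares depend on the exon length used and on how reads shared between genes were counted, which is not known. Tuba4a gives a mean share of 49% to 54.8% and Tubb4b 56.4% to 61.3%; the 49% of ZT12-SED pools 42.5% on flow cell 1 with 55.6% on flow cell 2.

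Tubulin mRNA was lower in sedentary hearts at ZT12 than at ZT0. All 10 tubulin genes had lower fitted levels in ZT12-SED than in ZT0-SED hearts, with log2 fold changes of -1.12 to -0.63 and a median of -1.04, against a median of -0.01 over all genes, of which 50.5% were below 0. By edgeR's quasi-likelihood test with Benjamini-Hochberg adjustment over 15294 genes, 6 of the 10 fell (Tuba1c, Tuba8, Tubb2a, Tubb2b, Tubb4b and Tubb6), where 2.74% of all genes were called lower and 5.2% were called in either direction. The other 4 genes, Tuba1a, Tuba1b, Tuba4a and Tubb5, had adjusted p-values of 0.0506 to 0.0779. Every count of members is a description, since the choice of the genes used these libraries.

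Among the beta-tubulin genes Tubb2a, an isotype best known from neurons, had 7.18, 11 and 15.8 CPM (lowest, median and highest of 6 libraries) in ZT12-SED hearts, against 19.5, 22 and 34 CPM in ZT0-SED hearts. The groups did not overlap, and the log2 fold change was -1.12 ± 0.17 (SE, adjusted p = 0.000187 by edgeR). Tubb4b had 29.9, 91.2 and 133 CPM in ZT12-SED hearts, against 139, 163 and 196 CPM in ZT0-SED hearts. These groups did not overlap either (log2 fold change -1.09 ± 0.27, edgeR adjusted p = 0.0202), and Tubb2a and Tubb4b were the 2 of 10 without overlap, against 0.811% of all genes. The low values of Tubb4b were those of flow cell 1, where the 3 ZT12-SED libraries had 29.9, 51.7 and 58.9 CPM. Tubb2b had 0.582, 1.37 and 2.51 CPM in ZT12-SED hearts, against 1.99, 2.64 and 4.75 CPM in ZT0-SED hearts, with 1 ZT12-SED library inside the range of ZT0-SED. Its log2 fold change was -1.04 ± 0.25 (edgeR adjusted p = 0.0176), and Tubb2a and Tubb2b summed to 12.8 ± 4.19 CPM in ZT12-SED and 27 ± 6.39 CPM in ZT0-SED hearts (SD, n = 6 each). Tubb6, a broadly expressed isotype that rises in dystrophic mouse muscle, had 5.18, 9.05 and 14.9 CPM in ZT12-SED hearts, against 9.81, 16 and 20 CPM in ZT0-SED hearts. The groups overlapped, and the log2 fold change was -0.8 ± 0.23 (edgeR adjusted p = 0.0458). Tubb5, the ubiquitous beta isotype, had 24.2, 63.1 and 96.5 CPM in ZT12-SED hearts, against 76.2, 87.6 and 119 CPM in ZT0-SED hearts, and its log2 fold change of -0.63 ± 0.23 did not pass (edgeR adjusted p = 0.0779).

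Among the alpha-tubulin genes Tuba8 had 36.1, 73.7 and 120 CPM in ZT12-SED hearts, against 107, 139 and 192 CPM in ZT0-SED hearts. The 3 ZT12-SED libraries of flow cell 1 lay below every ZT0-SED library, and the log2 fold change was -1.12 ± 0.32 (edgeR adjusted p = 0.0416). Tuba1c had 6.71, 16.6 and 21 CPM in ZT12-SED hearts, against 21, 27.8 and 38.1 CPM in ZT0-SED hearts. Its groups met at the edge, and the log2 fold change was -0.96 ± 0.25 (edgeR adjusted p = 0.0287). Tuba4a had 115, 339 and 543 CPM in ZT12-SED hearts, against 449, 612 and 831 CPM in ZT0-SED hearts. In 1 ZT12-SED library the value lay inside the ZT0-SED range, and the log2 fold change of -1.12 ± 0.33 stood just short of the threshold (edgeR adjusted p = 0.0506). Tuba1b, the ubiquitous alpha isotype, had 15.7, 31.8 and 46.3 CPM in ZT12-SED hearts, against 39.3, 62.6 and 78.9 CPM in ZT0-SED hearts. Tuba1a, the main isotype of developing neurons, had 33.6, 41.3 and 55.8 CPM in ZT12-SED hearts, against 37.6, 64.2 and 91 CPM in ZT0-SED hearts. Both overlapped between the groups, and their log2 fold changes were -1.03 ± 0.33 and -0.66 ± 0.21 (edgeR adjusted p = 0.0605 and 0.0623). Tuba1a, Tuba1b and Tuba1c summed to 89.6 ± 15 CPM in ZT12-SED and 158 ± 36.4 CPM in ZT0-SED hearts (SD, n = 6 each).

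**Figure D2:**
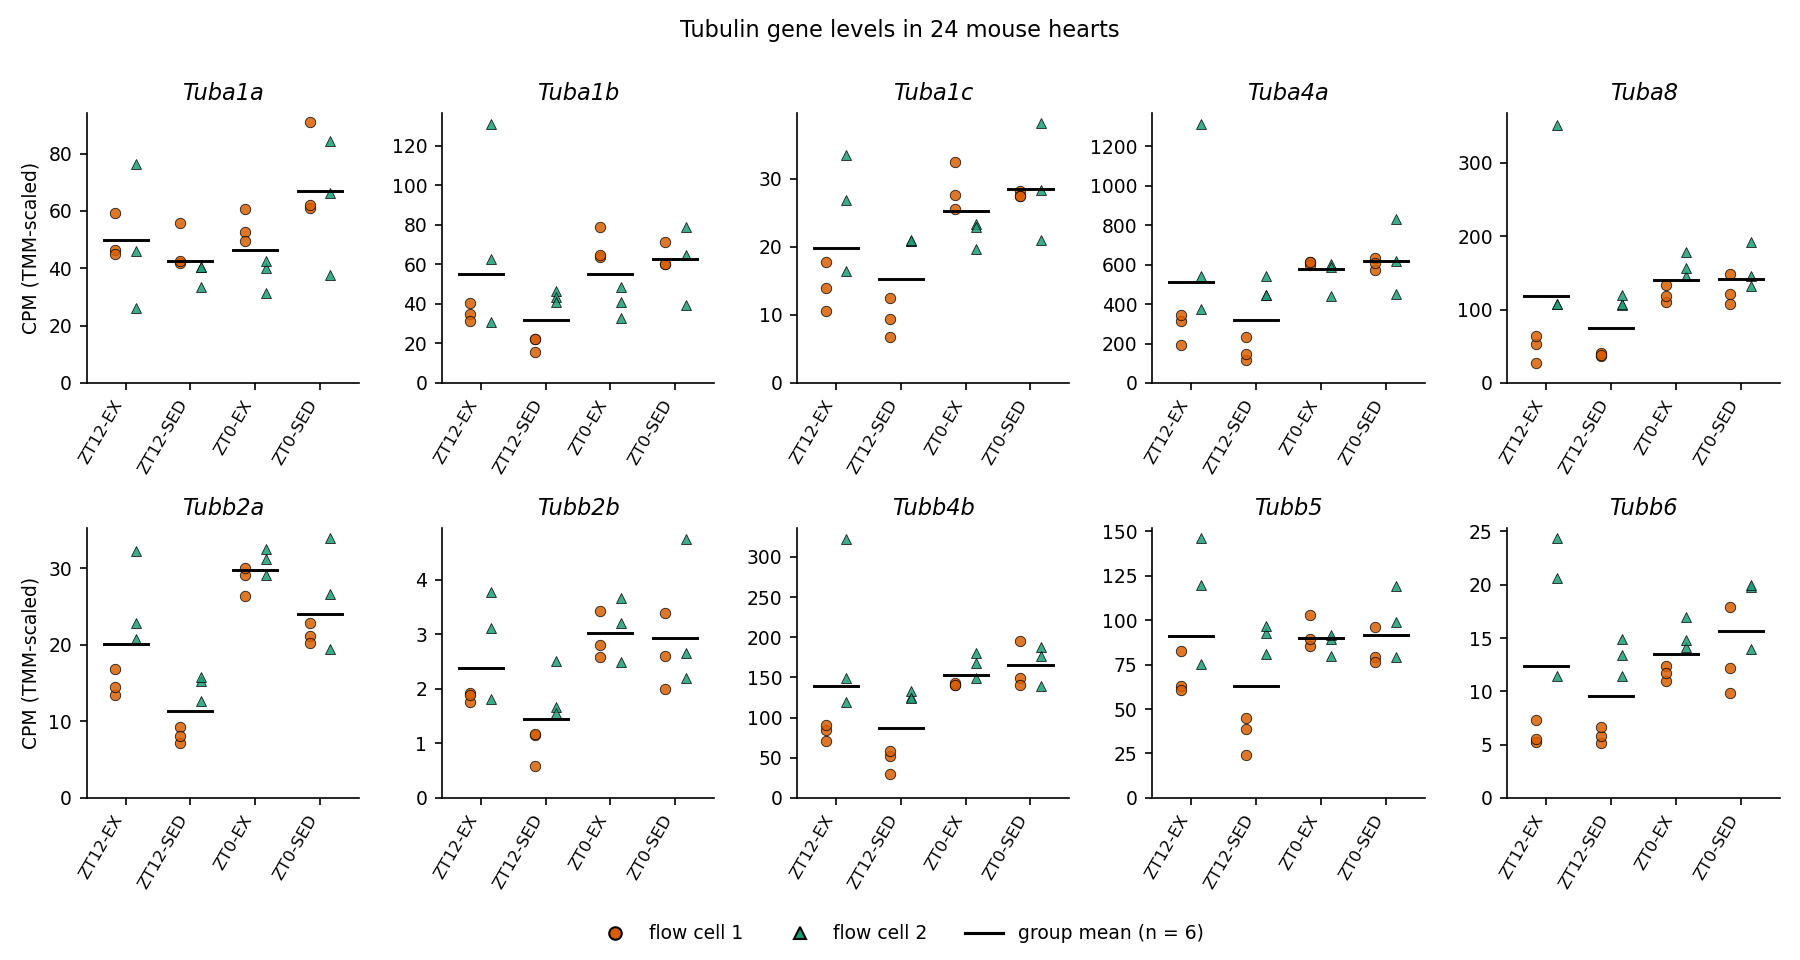
CPM of each tubulin gene in every library, by group, with flow cell 1 as circles, flow cell 2 as triangles and the group mean as a line. Low ZT12-SED values are mostly those of flow cell 1, and ZT12-EX 4 stands at the top of its group for Tuba4a (1310 CPM), Tuba8 (352 CPM) and Tubb4b (322 CPM).

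The flow cells gave this difference in different size. On flow cell 1 all 10 genes were lower without overlap in ZT12-SED than in ZT0-SED hearts, against 29.3% of all genes, and the median difference of mean log2 CPM was -1.48. On flow cell 2 the median was -0.43, and 3 genes (Tuba8, Tubb2a and Tubb4b) did not overlap, against 6.39% of all genes. Fitted alone, flow cell 1 called all 10 lower (43.5% of all genes called) and flow cell 2 called 0 (0.231% of all genes called). The ZT12-SED libraries of flow cell 1 had 49.7 ± 7.87% of their counts on mitochondrially encoded genes, against 30.7 ± 4.59% in ZT0-SED libraries of that flow cell. On flow cell 2 those shares were 17.7 ± 3% and 17 ± 7.84% (SD, n = 3 each). Over both flow cells the cardiomyocyte markers summed to 33900 to 69900 CPM in ZT12-SED and 51100 to 96200 CPM in ZT0-SED hearts, with 1 of 10 called lower and a median log2 fold change of -0.61. Called lower were also 2 of 8 endothelial markers (median -0.35), 2 of 8 fibroblast markers (-0.03), 1 of 8 smooth muscle and pericyte markers (-0.43), 1 of 7 macrophage and monocyte markers (-0.06), of which another was called higher, and the 1 brown adipocyte marker tested (-0.96). On flow cell 1 the fibroblast markers summed to 2980 ± 752 CPM in ZT12-SED and 1900 ± 286 CPM in ZT0-SED hearts, and the endothelial markers to 554 ± 147 and 768 ± 19.1 CPM. The part of the mitochondrial share and of these markers in the result was not tested.

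GC content moved with it. The 10 genes had 51.2% to 56.6% GC, above the median of 49.6% of tested genes, and the correlation of gene level with GC averaged -0.79 in ZT12-SED and -0.2 in ZT0-SED libraries of flow cell 1. The 4160 tested genes of that GC range had a median log2 fold change of -0.34 (flow cell 1 -0.78, flow cell 2 -0.01), and 4.45% of them were called lower. With an offset for GC in each library the tubulin median was -0.6, all 10 stayed below 0, and 3 were called lower (Tubb2a at -0.63, Tubb2b at -0.92 and Tubb4b at -0.63), where 3.44% of all genes were called. Without ZT12-EX 4, ZT12-SED 1 and ZT12-SED 2 the median was -0.72 and 3 were called (Tuba8, Tubb2a and Tubb4b), where 2.79% of all genes were. The 6 called genes became 10 without ZT12-EX 4 or ZT0-SED 6, and 3 without ZT12-SED 3, ZT0-SED 1 or ZT0-SED 2. They became 2 without ZT12-SED 1 or ZT0-SED 4, and 1 without ZT12-SED 2 or ZT0-SED 3. The share of all genes called in these fits is not given, so the counts cannot be set beside it. Tubb2a passed in each of the 24 fits that left out 1 library, at -1.22 to -1.05.

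**Figure D3:**
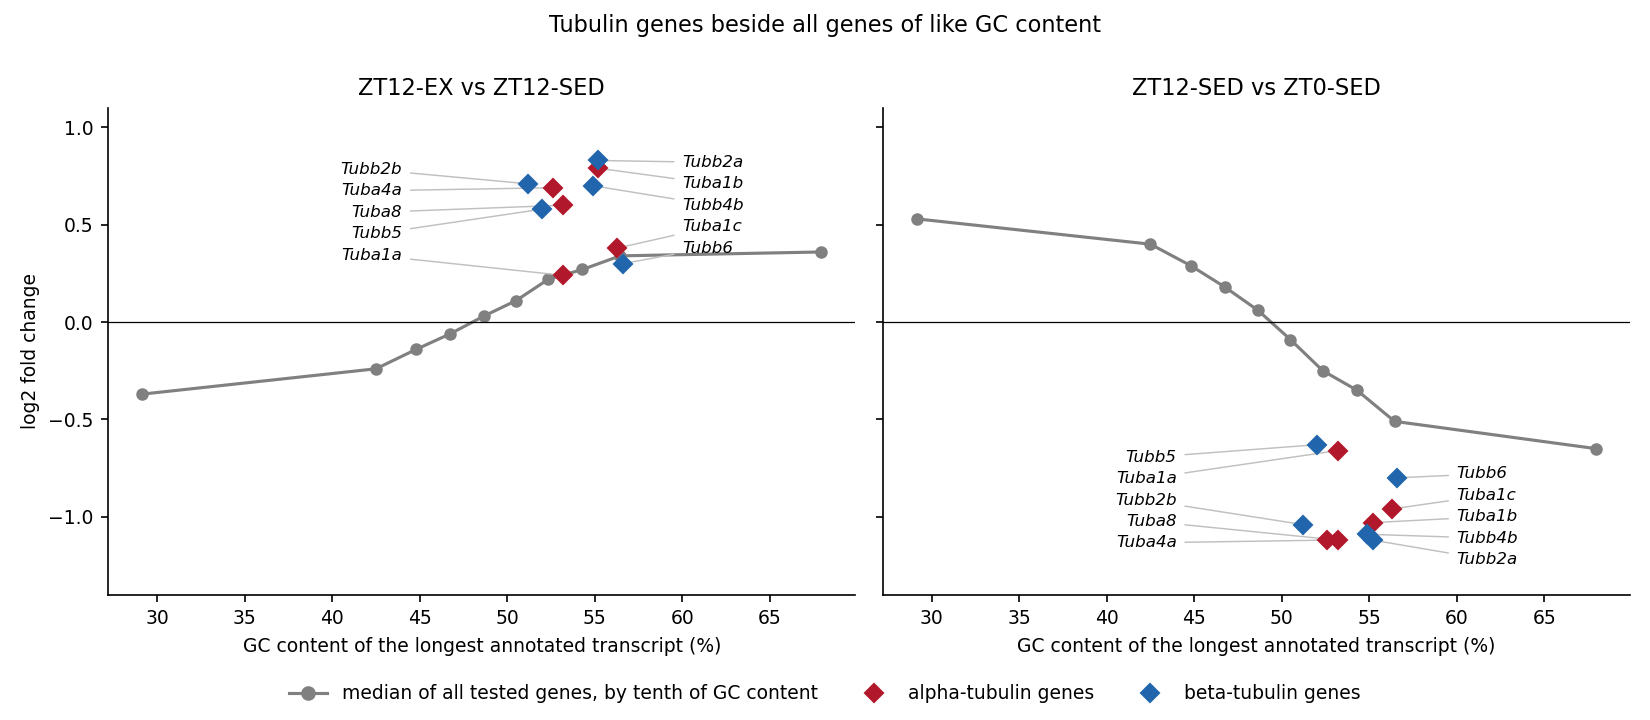
Log2 fold change of each tubulin gene (diamonds) against the GC content of its longest annotated transcript, beside the median of all tested genes in 10 bins of GC content (grey). For ZT12-SED against ZT0-SED the grey line runs down to -0.65 in the bin with most GC, and all 10 tubulin genes lie below it. For ZT12-EX against ZT12-SED, Tuba1a, Tuba1c and Tubb6 lie near the line and the other 7 above it.

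After the bout at ZT12 the beta-tubulin gene Tubb2a was higher than in sedentary hearts of that time, and the other tubulin genes lay above 0 without passing the test. All 10 log2 fold changes of ZT12-EX over ZT12-SED were above 0, from 0.24 to 0.83 with a median of 0.65, where 56.1% of all genes were above 0 and their median was 0.06. Genes in the GC range of the 10 had a median of 0.26 (0.48 on flow cell 1, 0.09 on flow cell 2), and with GC offsets 8 of the 10 stayed above 0. On flow cell 1 mitochondrially encoded genes held 34.9 ± 2.19% of counts in ZT12-EX and 49.7 ± 7.87% in ZT12-SED libraries, and on flow cell 2 13.1 ± 9.31% and 17.7 ± 3% (SD, n = 3 each). Tubb2a alone of the 10 rose by the test, where 0.19% of all genes were called higher and 0.294% in either direction. The comparison shares its ZT12-SED libraries with the one above, so the low sedentary values count in both.

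Tubb2a had 13.5, 18.8 and 32.3 CPM in ZT12-EX hearts, against 7.18, 11 and 15.8 CPM in ZT12-SED hearts. Within each flow cell the groups did not overlap: 13.5, 14.5 and 16.8 CPM in ZT12-EX and 9.21, 7.18 and 8.07 CPM in ZT12-SED on flow cell 1, then 22.9, 32.3 and 20.8 CPM in ZT12-EX and 12.7, 15.3 and 15.8 CPM in ZT12-SED on flow cell 2. Its log2 fold change was 0.83 ± 0.17 (edgeR adjusted p = 0.0248). The call did not hold with GC offsets (0.48, adjusted p = 0.235, with 0.432% of all genes called), without ZT12-EX 4, ZT12-SED 1 and ZT12-SED 2 (0.74, adjusted p = 0.128), or without ZT12-EX 3, ZT12-EX 5, ZT12-SED 2, ZT12-SED 3 or ZT12-SED 4, where its log2 fold change was 0.7 to 0.82. Tubb2b, Tubb4b, Tubb5 and Tuba1b were the other genes without overlap on flow cell 1, making 5 of 10, where 13.2% of all genes were higher without overlap. On flow cell 2 only Tubb2a was without overlap, against 2.74% of all genes.

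In several genes 1 library stood far above the rest of its group. Tuba4a had 193, 358 and 1310 CPM in ZT12-EX hearts, against 115, 339 and 543 CPM in ZT12-SED hearts, and the value of 1310 belonged to ZT12-EX 4. Tuba8 had 27.9, 85.7 and 352 CPM in ZT12-EX hearts, against 36.1, 73.7 and 120 CPM in ZT12-SED hearts, again with ZT12-EX 4 on top. Over both flow cells the medians of each gene lay close together. Within them the medians of ZT12-EX and ZT12-SED were 315 and 146 CPM (flow cell 1) and 544 and 446 CPM (flow cell 2) for Tuba4a. For Tuba8 they were 53.8 and 38.1 CPM, then 108 and 107 CPM. Without ZT12-EX 4 the log2 fold change of Tuba8 was 0.08, against 0.6 ± 0.31 with it (edgeR adjusted p = 0.894 and 0.329). That of Tuba4a was 0.26 without ZT12-EX 4, against 0.69 ± 0.33 with it (edgeR adjusted p = 0.693 and 0.298). ZT12-EX 4 had 2.7% of its counts on mitochondrially encoded genes, the lowest share of the 24, and the highest summed cardiomyocyte markers (199000 CPM, next 96200 in ZT0-SED 4) and atrial markers (8430 CPM). The 5 atrial markers summed to 3860 ± 2710 CPM in ZT12-EX and 1200 ± 926 CPM in ZT12-SED hearts (SD, n = 6 each), and to 2370 ± 1900 and 549 ± 688 CPM on flow cell 1 alone. Their median log2 fold change was 1.68 with 0 of 5 called, and the part of this tissue and of the mitochondrial share in the tubulin values was not tested. Without ZT12-EX 4, ZT12-SED 1 and ZT12-SED 2 the median of the 10 genes was 0.05, 6 of 10 were above 0 and 0 were called, where 0.3% of all genes were. The remaining log2 fold changes with all libraries ran from 0.24 for Tuba1a to 0.79 for Tuba1b, with edgeR adjusted p-values of 0.222 to 0.537. Tuba1a, Tuba1b and Tuba1c summed to 125 ± 60.2 CPM in ZT12-EX and 89.6 ± 15 CPM in ZT12-SED hearts, and Tubb2a and Tubb2b to 22.5 ± 7.58 and 12.8 ± 4.19 CPM (SD, n = 6 each).

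**Figure D4:**
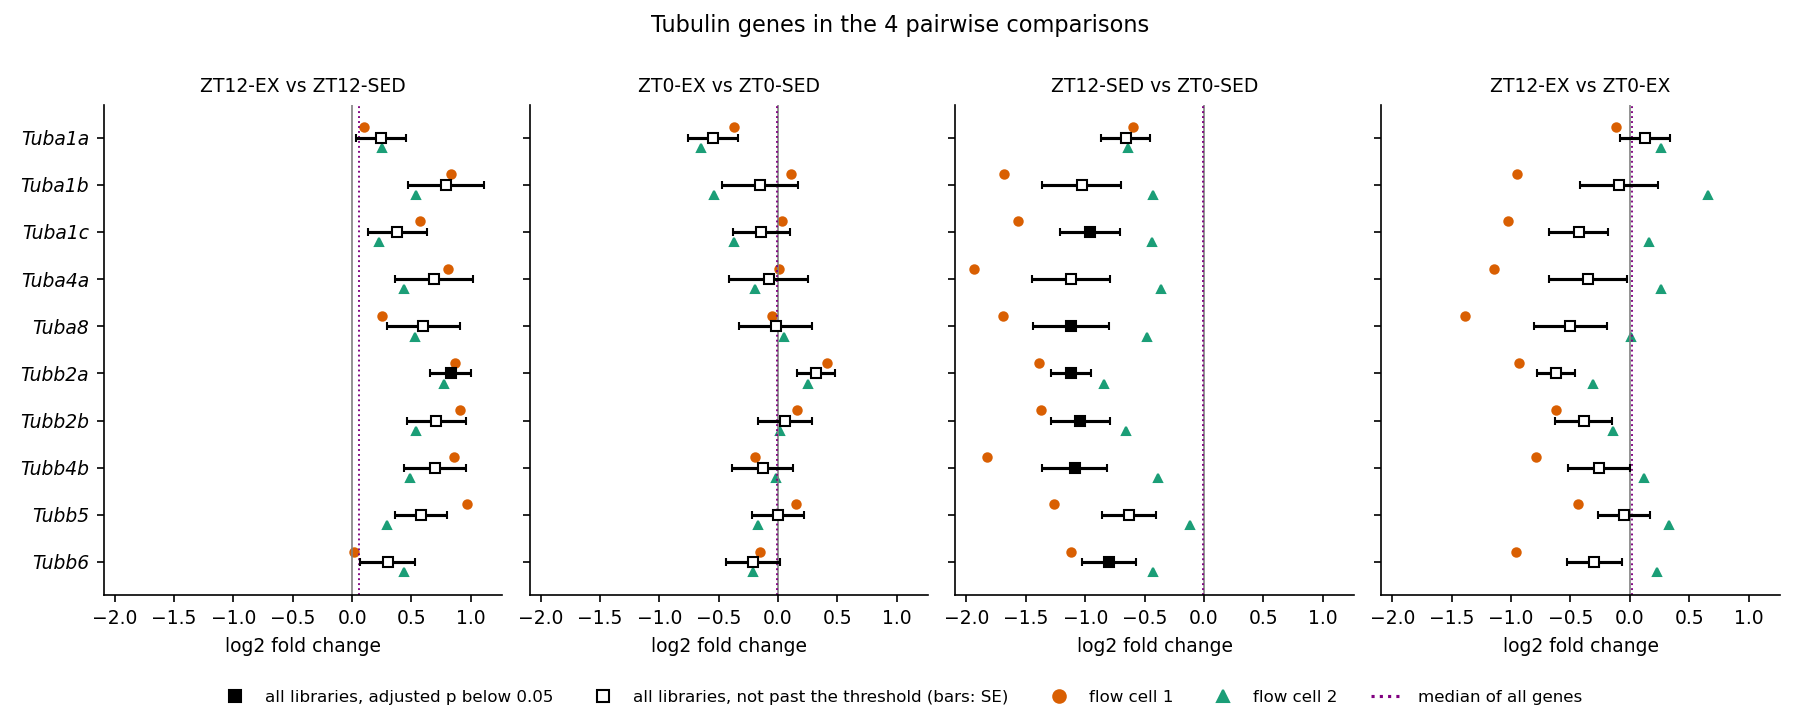
Log2 fold changes of the 10 tubulin genes in the 4 pairwise comparisons, as the fit over all libraries with its standard error (squares, filled where the adjusted p was below 0.05) and as the difference of mean log2 CPM on each flow cell. Filled squares are Tubb2a in the first panel and 6 genes in the third, where circles of flow cell 1 lie left of the triangles of flow cell 2 for all genes but Tuba1a.

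The bout at ZT0 was followed by no called change. The log2 fold changes of ZT0-EX over ZT0-SED ran from -0.55 to 0.32 with a median of -0.1, 3 of 10 were above 0 (48.9% of all genes) and 0 of 10 passed, where 1.08% of all genes were called. Tuba1a had 31.5, 46.2 and 60.7 CPM in ZT0-EX hearts, against 37.6, 64.2 and 91 CPM in ZT0-SED hearts. It gave the lowest value, -0.55 ± 0.21 (edgeR adjusted p = 0.357, unadjusted p = 0.0158), and the groups overlapped. Tubb2a had 26.4, 29.6 and 32.6 CPM in ZT0-EX hearts, against 19.5, 22 and 34 CPM in ZT0-SED hearts, a log2 fold change of 0.32 ± 0.16 (edgeR adjusted p = 0.493). On flow cell 1 Tubb2a was higher and Tuba1a lower in ZT0-EX hearts without overlap, where 11.2% of all genes were higher and 9.81% lower in that way, and on flow cell 2 both overlapped. The most abundant genes stood close: Tuba4a had medians of 601 CPM in ZT0-EX and 612 CPM in ZT0-SED hearts, and Tubb4b 146 and 163 CPM. Of the 10 genes, 1 had an unadjusted p below 0.05, beside 10.4% of all genes, and DESeq2 also called 0 (1.75% of all genes called). Skeletal muscle transcripts were in 3 of 6 ZT0-EX and 1 of 6 ZT0-SED libraries. Without the 6 libraries that carried them in the 4 groups, the median was 0.26 and 9 of 10 genes were above 0. The median over all genes was 0.01 there. That fit had ZT0-EX libraries of flow cell 1 only, and the part of that tissue in the result was not tested.

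The difference between the bouts, tested as the interaction of exercise and time, was above 0 for all 10 genes and passed for none. The values ran from 0.5 to 0.94 on the log2 scale with a median of 0.64, against 0.01 over all genes, of which 51.1% were above 0. Genes in the GC range of the 10 had a median of 0.21 (0.47 on flow cell 1, 0.01 on flow cell 2). The median of the 10 was 0.5 with GC offsets and 0.44 without the 6 libraries with skeletal muscle transcripts. Tuba1b had the largest, 0.94 ± 0.45, and Tuba1a 0.79 ± 0.3 (both edgeR adjusted p = 0.571). No gene of the 15294 was called in this test (smallest adjusted p 0.125), while 4 of the 10 members and 8.02% of all genes had an unadjusted p below 0.05. DESeq2 called 0 members and 5 genes in all (0.0327%). Without the 3 libraries that stood apart the median of the 10 was 0.18, and without ZT12-EX 4 alone the value of Tuba8 was 0.1 in place of 0.62.

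Between exercised hearts of the 2 times no tubulin gene passed the test. The log2 fold changes of ZT12-EX over ZT0-EX ran from -0.62 to 0.13 with a median of -0.32, and 0 of 10 passed, where 1.65% of all genes were called (0.837% lower). Tubb2a had 13.5, 18.8 and 32.3 CPM in ZT12-EX hearts, against 26.4, 29.6 and 32.6 CPM in ZT0-EX hearts. Of the ZT12-EX libraries, 1 reached the ZT0-EX range, and the log2 fold change was -0.62 ± 0.16 (edgeR adjusted p = 0.0526). The flow cells went opposite ways: the median of the 10 genes was -0.94 on flow cell 1, where 9 of 10 were lower without overlap against 22.9% of all genes, and 0.2 on flow cell 2, where 0 were, against 6.94% of all genes. On flow cell 2 Tubb2a (-0.31) and Tubb2b (-0.14) stayed below 0, and the other genes ran from 0.01 for Tuba8 to 0.66 for Tuba1b. Tuba1b had 35.6 ± 4.44 CPM in ZT12-EX and 69 ± 8.56 CPM in ZT0-EX hearts on flow cell 1. On flow cell 2 it had 75 ± 51.2 and 40.8 ± 7.87 CPM (SD, n = 3 each). That mean of 75 CPM pools 131 CPM in ZT12-EX 4 with 62.8 CPM in ZT12-EX 5 and 31 CPM in ZT12-EX 6. Of the 3 ZT0-EX libraries on flow cell 2, all 3 carried the skeletal muscle transcripts, against 1 of the 3 ZT12-EX libraries. Without the 6 libraries that carried them the median was -0.72 and 10 of 10 were below 0. In that fit 1 gene was called, where 0.551% of all genes were. It had ZT0-EX libraries of flow cell 1 only, so the part of that tissue was not tested apart from the flow cell. Without ZT12-EX 4, ZT12-SED 1 and ZT12-SED 2, 3 genes were called lower: Tuba8 (-0.98), Tubb2a (-0.61) and Tubb4b (-0.57), where 6.49% of all genes were called. The count was 2 without ZT12-EX 4 alone, and 1 without ZT12-EX 5, ZT12-SED 1, ZT0-SED 3 or ZT0-SED 6. For the fits that left out 1 library the share of all genes called is not given, so these counts cannot be set beside it. This comparison shares no library with that of ZT12-SED and ZT0-SED hearts, but shares ZT12-EX and ZT0-EX libraries with the comparisons of exercise.

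Levels also differed between flow cells. Over the 4 groups 8 of the 10 genes were higher on flow cell 2 than on flow cell 1 by edgeR (all but Tuba1a and Tuba1b), where 34.1% of all genes were called higher. Tuba8 averaged 154 ± 68.6 CPM on flow cell 2 and 83.1 ± 43.7 CPM on flow cell 1 (SD, n = 12 each), a log2 difference of 1.05 ± 0.23. Tubb6 averaged 16.3 ± 4.06 and 9.23 ± 3.95 CPM, a log2 difference of 0.89 ± 0.16, and Tuba1a 47.1 ± 18.3 and 55.7 ± 13.4 CPM, a log2 difference of -0.25 ± 0.15. With GC offsets 1 gene was called higher and 3 lower on flow cell 2, where 19.3% of all genes were called higher and 18.5% lower. What differs between the flow cells besides the run is not given in the labels.

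**Figure D5:**
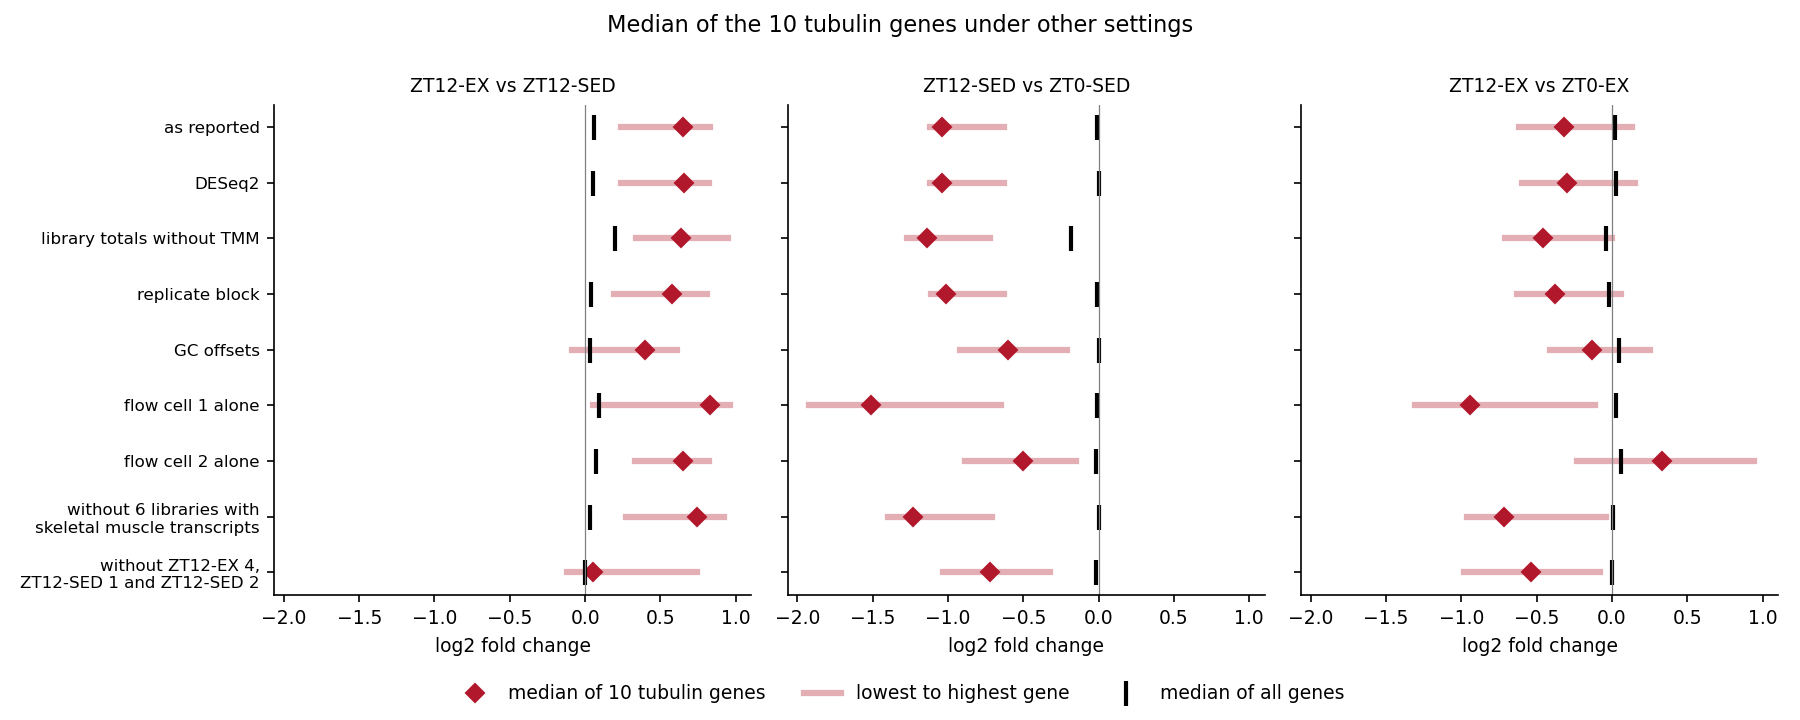
Median of the 10 tubulin genes (diamonds) with the lowest to highest gene (bars) and the median of all genes (ticks) in 3 comparisons under 9 settings. The ZT12-SED against ZT0-SED median stays below 0 in each setting shown (-1.51 to -0.5), while ZT12-EX against ZT12-SED falls to 0.05 without the 3 libraries that stood apart and ZT12-EX against ZT0-EX lies at 0.33 on flow cell 2 alone.

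The 10 genes varied together across hearts. After centring each flow cell, Pearson's r of log2 CPM over the 24 libraries ran from 0.38 to 0.95 with a median of 0.8 over 45 pairs, and the pairs share libraries and, in part, reads. Tuba4a and Tubb4b were the closest pair (0.95), and Tuba1a and Tubb2a the least close (0.38). Outside the tubulin family, among 11307 genes, the genes most like Tubb2a over those 24 libraries were Serpinh1 (r = 0.965), Creb3l1 (0.92) and Hspb1 (0.915). Hspb1 (0.893), Plin2 (0.884) and Ogfod3 (0.872) were most like Tubb2b. Those nearest to Tubb4b were Gtf2f1 (0.978), Rnf187 (0.977) and Fdxr (0.974), to Tuba8 Spg7 (0.957), Nob1 (0.953) and Cox10 (0.948), and to Tubb6 Ccdc102a (0.919), Metrnl (0.912) and Tmbim6 (0.903). The median r of all candidate genes was -0.03 to 0.03 with each of these 5 genes, and the libraries share depth and GC trends that enter every r.

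Of 10 further tubulin genes looked up, 6 passed the filter and none was called in any comparison. Tubg1, the gamma-tubulin gene that nucleates microtubules, averaged 13.7 ± 10 CPM in ZT12-EX, 10 ± 7.14 in ZT12-SED, 14.6 ± 2.99 in ZT0-EX and 15.1 ± 4.54 in ZT0-SED hearts. Its log2 fold change of ZT12-SED over ZT0-SED was -0.81 ± 0.31 (edgeR adjusted p = 0.0869). Tubb4a, an isotype abundant in oligodendrocytes, averaged 1.62 ± 0.89, 1.18 ± 0.599, 2.25 ± 0.358 and 2.29 ± 0.415 CPM in the same groups, with a log2 fold change of -0.92 ± 0.29 in that comparison (edgeR adjusted p = 0.0614). Tubd1, Tubg2, Tubb3 and Tube1 ran from -0.34 to 0.15 there, with edgeR adjusted p-values of 0.247 to 0.813. Tubb1, the platelet isotype, Tuba3a, Tuba3b and Tubal3 did not pass the filter, and Tubal3 had 0 counts in every library, which allows at most 0.13 to 0.575 CPM.

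Of 146 tested genes in 10 lists of other tubulin, microtubule, actin and intermediate filament genes, 2 rose and 7 fell in ZT12-SED against ZT0-SED hearts. This is 6.16% of them, near the 5.2% of all genes. Of the 19 tubulin modifying enzymes 2 rose and 2 fell, with a median log2 fold change of -0.34. Agtpbp1, which removes glutamate from tubulin tails, averaged 129 ± 46.6 CPM in ZT12-SED and 74.2 ± 11.7 CPM in ZT0-SED hearts (log2 fold change 0.76 ± 0.18, edgeR adjusted p = 0.0165). Ttll7, which adds glutamate, averaged 11.9 ± 5.43 and 5.27 ± 2.21 CPM in those groups (1.07 ± 0.32, adjusted p = 0.0491). Ttll1, the catalytic subunit of another glutamylase, averaged 34.1 ± 17.3 and 54.3 ± 12.5 CPM (-0.83 ± 0.24, adjusted p = 0.0448), and Ttll12, a divergent member of that family, 4.03 ± 2.32 and 6.53 ± 1.29 CPM (-0.82 ± 0.24, adjusted p = 0.0458). Of the glutamylase genes, Ttll7 was called higher and Ttll1 lower.

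The other calls of that comparison were Map7d1 (1 of 19 microtubule-associated protein genes, log2 fold change -0.74), the plus-end protein gene Clip2 (1 of 15, -1.28), and 3 of 19 actin and intermediate filament genes: Acta2 (-1.08), Actb (-0.76) and Tmsb10 (-1.3). Actb averaged 210 ± 48.6 CPM in ZT12-SED and 347 ± 76 CPM in ZT0-SED hearts. Median log2 fold changes were -0.66 in the actin list, -0.24 among the microtubule-associated proteins and 0.13 among plus-end and severing proteins, beside -0.01 over all genes. None of the 7 folding cofactors (median -0.11), 15 CCT and prefoldin genes (-0.15), 4 genes of tubulin mRNA autoregulation (0.17), 14 gamma-tubulin complex genes (0.15) or 28 motor genes (-0.07) was called. Of the 9 calls, 0 remained on flow cell 2 alone.

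After exercise none of the 146 genes was called at ZT12, at ZT0 or in the interaction, where 0.294%, 1.08% and 0% of all genes were. The smallest p at ZT12 was that of Cct7, a subunit of the CCT chaperonin that folds tubulin, with 162 ± 65 CPM in ZT12-EX and 97 ± 28.3 CPM in ZT12-SED hearts (log2 fold change 0.75 ± 0.18, edgeR adjusted p = 0.0717). Of 15 CCT and prefoldin genes 10 lay above 0 there, with a median of 0.15. Ttc5, which starts tubulin mRNA decay, stood at -0.1 ± 0.13. At ZT0 the gamma-tubulin complex list had a median of 0.27 with 11 of 14 genes above 0, and the folding cofactors -0.25 with 1 of 7 above 0. Between exercised hearts Clasp1, a plus-end protein gene that stabilises microtubules, fell, with 105 ± 50.5 CPM in ZT12-EX and 226 ± 23.8 CPM in ZT0-EX hearts. Its log2 fold change was -1.1 ± 0.25 (edgeR adjusted p = 0.0188), the flow cells gave -1.22 and -1.21, and it was the 1 call among 146 genes, or 0.685%.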

How the data were processed

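RNA was measured in 24 hearts, 6 per group, with 3 of each group on each of 2 flow cells per the labels. The deposited values are raw read counts per gene and library. Per the submitters' processing notes the authors used Trimmomatic 0.39, HISAT2 2.2.1 and featureCounts 2.0.1 on build GRCm39. The annotation release, strand setting and treatment of multi-mapping reads were not given in the sources used here. Symbols, chromosomes, exon lengths and GC content (longest transcript) came from GENCODE M21 (GRCm38); 257 identifiers had no symbol and held 0.0013% of counts. Library totals were 9697334 to 23067191 counts, and 3 counts equalled 0.13 to 0.575 CPM, a limit that covers counting error only.

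Counts were tested in R 4.3.3 with edgeR 4.0.16 (quasi-likelihood, TMM scaling, group plus flow cell, 19 residual degrees of freedom) over 15294 of 52350 genes after its filter on low counts. P-values were adjusted by Benjamini-Hochberg over all tested genes, with a threshold of 0.05. The SE of a fold change is its size over the square root of the F statistic. Log2 CPM used a prior count of 2. CPM and RPKM were computed here from the deposited counts, and flow cell differences are of mean log2 CPM. Alternatives were DESeq2 1.42.0, other scalings and filters, no flow cell term, a replicate block, each flow cell alone, compared groups alone, GC offsets per library and leaving out libraries. The test was also run on counts simulated from its own fitted model. These lacked the GC trends of single libraries, so that run, whose outcome is not given, does not bear on them. Replicate numbers showed no steady pairing: deviations of same-numbered samples correlated at -0.45 to 0.78. Replicate 6 of every group carried the skeletal muscle transcripts, and its deviations correlated at -0.35 to 0.78. No 2 libraries of a group were alike within sampling noise (lowest chi-square per degree of freedom 13.3 over 60 pairs). The labels number the samples of a group as biological replicates without naming the animal of each. P-values measure the spread between these samples, which may be in part technical.

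The genes and lists were chosen with earlier results of these data known. Named were all 10 tubulin genes, every tested further tubulin gene, in each list and comparison up to 4 called genes by smallest p (otherwise the 1 with the smallest p, given where it bears on the text), and the 3 genes most alike to each called tubulin gene by Pearson's r of flow-cell-centred log2 CPM, among genes averaging 1 or more in log2 CPM. Some sequences and the likeness result of 1 tubulin gene are not reported here.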

Additional observations from a re-analysis of the deposited data

Results flagged for a closer look

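Tuba4a in ZT0-EX hearts had 1 library far from the others: ZT0-EX 4 stood at 8.78 log2 CPM, and the nearest other library at 9.2. The gap was 0.864 of the range of the group, above the critical value of 0.625 for 6 samples. Of 40 groups of values checked, 1 was set apart in this way, where chance does so in about 1 in 20.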

How the results depend on the processing

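All 10 tubulin genes stayed below 0 in ZT12-SED against ZT0-SED hearts under every setting tried, and no value changed sign while called. The number called there, 6, was 10 with DESeq2 (19.1% of all genes called) and on flow cell 1 alone (43.5%). It was also 10 without the 6 libraries with skeletal muscle transcripts (20.1%). It was 3 with GC offsets (3.44%), 1 with no flow cell term (0.843%) and 0 on flow cell 2 alone (0.231%). With 1 library left out it was 1 to 10, and the share of all genes is not given for such fits, here or below. The 1 call in ZT12-EX against ZT12-SED hearts was 0 with library totals (0.163% of all genes called), no filter (0.12%) or no flow cell term (0.0654%). On flow cell 1 (0.133%), flow cell 2 (0.0264%), the compared groups alone (0.0986%) or with GC offsets (0.432%) it was also 0. It was 0 to 1 when 1 library was left out. The 0 calls in ZT12-EX against ZT0-EX hearts were 1 with DESeq2 (3.5% of all genes called), 3 on flow cell 1 alone (1.26%), 1 without the 6 libraries (0.551%), and 0 to 2 when 1 library was left out. In ZT0-EX against ZT0-SED hearts and in the interaction the count was 0 under every setting run, 0 to 0 when 1 library was left out. With the replicate block, whose numbers showed no steady pairing, 4 were called in ZT12-SED against ZT0-SED hearts (3.98% of all genes called). In ZT12-EX against ZT12-SED hearts that block called 0 (0.203%). Chosen after seeing the data were the block with GC offsets and leaving out ZT12-EX 4, ZT12-SED 1 and ZT12-SED 2. With the block and GC offsets, calls in the same comparisons were 3 (3.3% of all genes called) and 0 (0.281%). Without those 3 libraries they were 3 (2.79%) and 0 (0.3%), and 3 in ZT12-EX against ZT0-EX hearts (6.49%). The 8 genes higher on flow cell 2 became 4 calls with GC offsets (1 higher, 3 lower). Of the 146 list genes, calls in ZT12-SED against ZT0-SED hearts were 36 with DESeq2 (19.1% of all genes called), 69 on flow cell 1 (43.5%), 0 on flow cell 2 (0.231%), 36 without the 6 libraries (20.1%), 4 with GC offsets (3.44%) and 1 without the 3 libraries (2.79%). They were 2 with DESeq2 (1.48%) and 1 on flow cell 1 (0.133%) in ZT12-EX against ZT12-SED hearts, 1 with GC offsets (1.63%) in ZT0-EX against ZT0-SED hearts, and 2 with DESeq2 (3.5%), 0 on either flow cell (1.26% and 0.112%), 2 with GC offsets (2.58%) and 6 without the 3 libraries (6.49%) in ZT12-EX against ZT0-EX hearts. Over all genes, 795 calls in ZT12-SED against ZT0-SED hearts were 2917 with DESeq2, 234 with library totals, 129 with no flow cell term and 526 with GC offsets, and 45 in ZT12-EX against ZT12-SED hearts were 226 with DESeq2. Library totals moved the median of all genes by -0.18 and 0.2 in those comparisons. The compared groups alone could not be run for the interaction. The cause of these shifts was not tested. Depth limits Tubb2b most, at 0.582 CPM in its lowest library.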
